A study of Saccharomyces cerevisiae with 25 samples.

Results

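The comparison described here was between W303 cells harvested 4 h after the addition of 1 µg/mL tunicamycin (Tm) and W303 cells harvested at 0 h. W303-1a is the wild-type strain of the series, a MATa haploid of Saccharomyces cerevisiae with the markers ade2, his3, leu2, trp1, ura3 and can1, and these markers were shared by both groups. The members were 6 of the 25 libraries of the series, chosen by strain and time alone: 1 ribosome profiling and 1 RNA-seq library at 4 h, and 2 of each at 0 h. Tm was added to cultures in log phase, and no W303 library without Tm at 4 h was analysed here, so that the drug and the hours of further growth cannot be told apart. The other libraries were W303 at 1 and 2 h and the strains eS7A-WT and eS7A-4KR, which lack the chromosomal genes of eS7A and eS7B and carry tagged eS7A on a plasmid, in eS7A-4KR with its ubiquitinated lysines replaced by arginine.

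Tm blocks the first step of protein N-glycosylation, so that unfolded glycoproteins build up in the endoplasmic reticulum (ER). In yeast the sensor Ire1 then cuts an intron out of HAC1 mRNA, the tRNA ligase Trl1 joins the exons, and the Hac1 transcription factor made from the spliced mRNA raises the transcription of ER chaperones, folding enzymes and degradation factors, which is the unfolded protein response (UPR). Ribosome profiling sequences the mRNA fragments that ribosomes protect (footprints), and RNA-seq of the same cells measures the mRNA, so the ratio of both gives the translation efficiency (TE) of a gene.

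The RNA-seq library at 4 h held 28309641 counts, against 29024507 and 31556359 at 0 h. The footprint library at 4 h held 3423907 counts, the lowest total of the series, against 4925515 and 10457860 at 0 h, so that genes with low expression were measured with less precision in footprints at 4 h. Levels are given below in cpm, a gene's counts relative to the size of its library after TMM normalization, which scales the libraries so that the average gene keeps its level. A change is the log2 ratio of 4 h to 0 h, was tested with edgeR's quasi-likelihood test, and was called at a Benjamini-Hochberg adjusted p under 0.01 over the 5392 genes tested. The 4 h group had 1 library per assay, so that the spread was taken from the 2 libraries at 0 h, whose cultures are not stated to be separate. The p-values therefore measure only the spread between these libraries, which may be technical. The a-cell genes MFA1, MFA2, STE2, STE6, BAR1 and AGA2 had between 16 and 7158 counts in each of the 6 libraries, which the MATa label asks for. Of the 4 alpha-cell genes 3 had more RNA-seq counts at 4 h than at 0 h. SAG1 had 614 counts at 4 h against 258 and 341 at 0 h, STE3 426 against 31 and 29, MF(ALPHA)1 20 against 7 and 7, and MF(ALPHA)2 2 against 1 and 4.

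mRNA levels changed in most genes. Of 5392 genes, 3970 were called (73.6%), 2030 higher (37.6%) and 1940 lower (36%) at 4 h, and 2184 of them differed by at least 2-fold. In footprints 3483 genes were called (64.6%), 1724 higher (32%) and 1759 lower (32.6%), 2349 of them by at least 2-fold. Across genes, which are not independent replicates, the RNA-seq library at 4 h had a Spearman's rho of 0.685 and 0.698 with the libraries at 0 h, against 0.996 between both libraries at 0 h. In footprints the same values were 0.684 and 0.69, against 0.995. Because most genes moved, the scaling mattered. With total counts in place of TMM the median of all genes was 0.71 higher for mRNA and 0.95 higher for footprints on the log2 scale, and the calls became 3320 higher and 971 lower for mRNA and 3366 higher and 872 lower for footprints. Falls smaller than these shifts depended on the scale, and the mRNA calls for ALG11, GPI13, ERV14, MRPL37, TRR1, ACO1 and CYC1 given below were lost on total counts. All changes below are relative to the TMM scale, on which the median gene changed by 0.04 in mRNA and 0.02 in footprints. No absolute amount per cell was measured, and a smaller share of counts cannot be told apart from less RNA per cell.

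Footprints followed the mRNA. The 2 changes had a Pearson's r of 0.948 across the 5392 genes, which share libraries and are not independent, and the slope of the footprint change on the mRNA change was 1.07. The footprint change lay within 1 log2 unit of the mRNA change in 94.2% of genes. Both were called in the same direction in 3183 genes, of which 1590 were higher and 1593 lower, and they were called in opposite directions in 12.

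**Figure D1:**
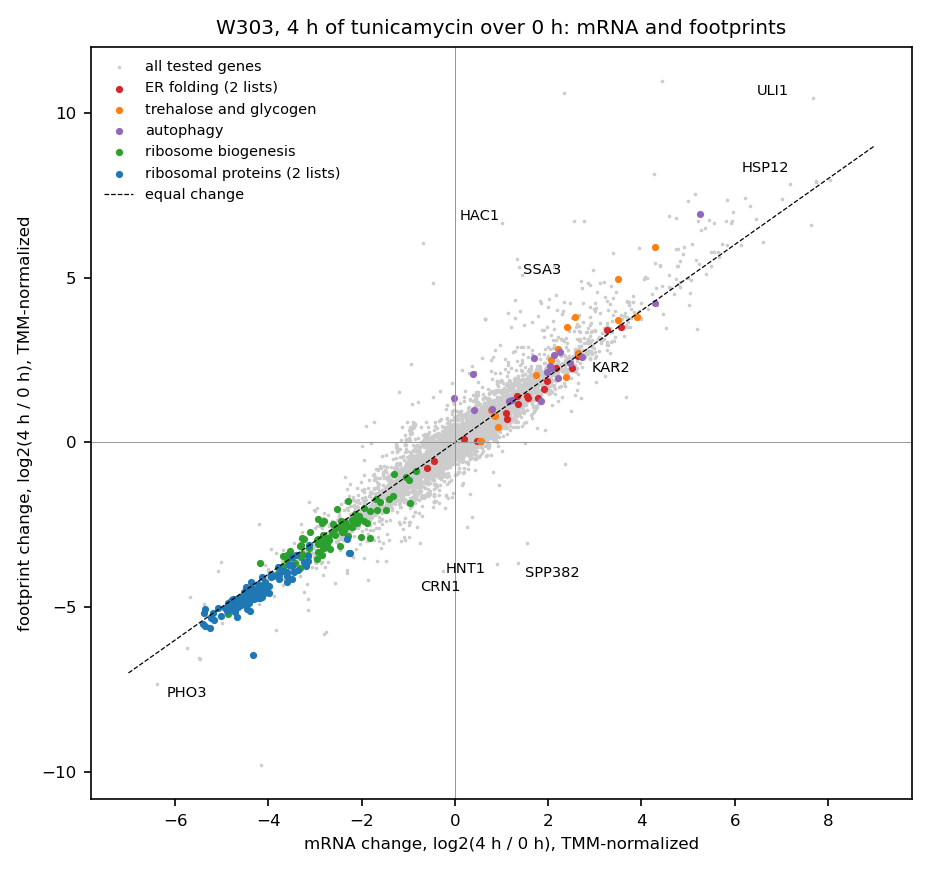
Change in mRNA (x axis) against change in footprints (y axis) for the 5392 tested genes of W303, each as the log2 ratio of 4 h to 0 h on the TMM scale, with 5 gene groups in colour and the line of equal change dashed. The ribosomal proteins (blue) lie at the lower left along the line, the ER folding genes (red) above 0 except for a few, and HAC1 and SSA3 far above the line, HNT1, CRN1 and SPP382 far below it.

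Genes were then grouped in 44 lists by function. They are described by the number of members that rose or fell and by their median, beside 0.04 for mRNA and 0.02 for footprints over all genes. The counts of members stand beside shares over all genes of 37.6% higher and 36% lower in mRNA, and 32% higher and 32.6% lower in footprints.

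**Figure D2:**
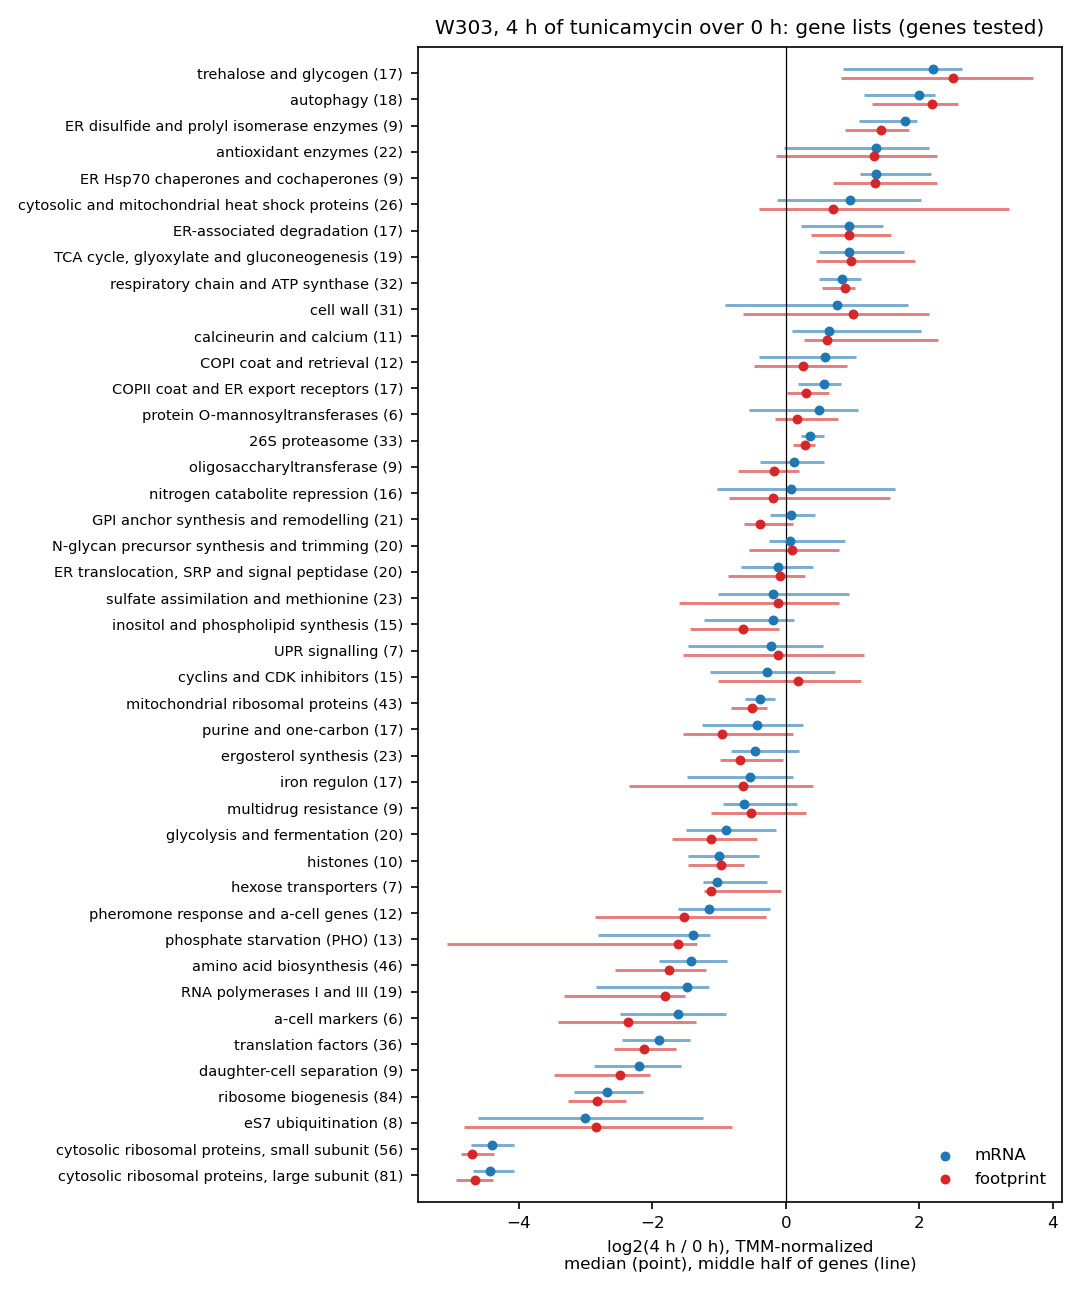
Median log2 ratio of 4 h to 0 h in W303 for the lists with at least 6 tested genes, with mRNA in blue and footprints in red, and a line from the lower to the upper quartile of each list's genes. The number of tested genes stands in brackets. The lists run from trehalose and glycogen (median 2.20 in mRNA and 2.51 in footprints) at the top to the proteins of both ribosomal subunits (-4.41 and -4.44 in mRNA) at the bottom, and in most lists both measures have similar medians.

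The ER folding genes were higher. Of the 9 ER Hsp70 chaperones and cochaperones, 7 rose in mRNA and in footprints (medians 1.35 and 1.34), and of the 9 disulfide and prolyl isomerase enzymes 8 rose in mRNA and 7 in footprints (medians 1.78 and 1.42). KAR2, the ER Hsp70 (chromosome X, 381327 to 383375 in RefSeq R64, the assembly of sacCer3, as for all positions below), had 6559 cpm in mRNA at 4 h, against 1073 and 1036 cpm at 0 h. Its footprints were 6607 cpm at 4 h and 1053 and 1077 cpm at 0 h. Both libraries at 0 h lay far below the 4 h library, and the changes were 2.64 ± 0.13 (SE) in mRNA (adjusted p = 1.42e-11, edgeR) and 2.63 ± 0.13 in footprints (2.01e-11). SIL1, the nucleotide exchange factor of Kar2, had 401 cpm in mRNA at 4 h against 41.7 and 42.6 cpm at 0 h, and 391 cpm in footprints against 34.8 and 37.8. Its changes of 3.25 in mRNA and 3.42 in footprints were larger than those of any other gene of the list. The J-domain cochaperones JEM1 (2.17 in mRNA), ERJ5 (1.56) and SCJ1 (1.34), the chaperone ROT1 (1.35) and LHS1, a further ER Hsp70 (1.11), also rose. The J-domain subunit of the translocon SEC63 had 263 cpm at 4 h, against 231 and 226 cpm, and did not pass the test (0.20, adjusted p = 0.114). CNE1, the yeast calnexin homologue, fell by 0.59 in mRNA, with 21.5 cpm at 4 h against 30 and 34.4 cpm, but on total counts its change was 0.13, and the call was lost with DESeq2 (adjusted p = 0.0451).

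**Figure D3:**
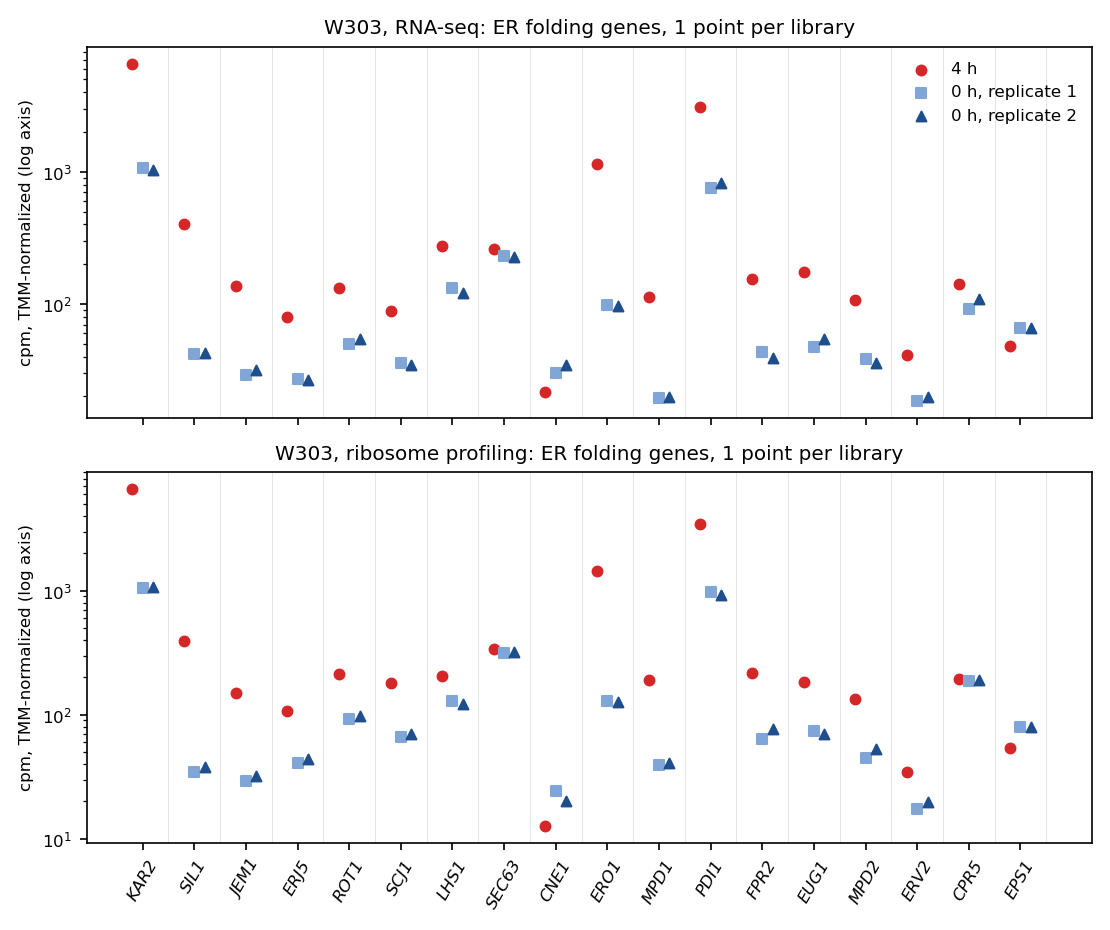
TMM-normalized cpm on a log axis of the 18 ER folding genes in W303, RNA-seq above and ribosome profiling below, with 1 point per library and 4 h (red) left of both 0 h libraries (blue). In 15 of the 18 genes the mRNA call at 4 h was higher, KAR2, SIL1, ERO1, MPD1 and PDI1 among them, while CNE1 and EPS1 lie below their 0 h libraries and SEC63 was not called.

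Among the oxidoreductases, ERO1, the thiol oxidase that feeds disulfides to Pdi1, rose most (chromosome XIII, 11483 to 13174). It had 1139 cpm in mRNA at 4 h against 97.9 and 96.7 cpm at 0 h, and 1440 cpm in footprints against 129 and 127. This was 11.7-fold higher in mRNA and 11.3-fold higher in footprints (adjusted p = 2.47e-13 and 5.06e-13). PDI1, the main disulfide isomerase, was the most abundant of the list in counts, with 3097 cpm in mRNA at 4 h against 754 and 829 cpm at 0 h, and rose 3.91-fold. Its relatives MPD1 (2.52), EUG1 (1.78) and MPD2 (1.54), the prolyl isomerase FPR2 (1.91) and the oxidase ERV2 (1.09) rose as well. The prolyl isomerase CPR5 had a change of 0.48 in mRNA, a call that was lost with DESeq2 (adjusted p = 0.0313), without a filter on low counts (0.0131) and in a fit of all 25 libraries (0.028). EPS1, a membrane-bound relative of Pdi1, fell by 0.45 in mRNA, but its change on total counts was 0.26, and the call was lost with DESeq2 (0.0305).

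HAC1 rose modestly in mRNA and very strongly in footprints (chromosome VI, 75179 to 76147). It had 1336 cpm in mRNA at 4 h, against 706 and 632 cpm at 0 h. Its footprints were 1531 cpm at 4 h, from 8034 counts, and 12 and 17.1 cpm at 0 h, from 47 and 141 counts. The changes were 1.00 ± 0.137 in mRNA (adjusted p = 5.17e-06) and 6.66 ± 0.169 in footprints (3.12e-14), and the change in TE was 5.66 ± 0.234 (2.66e-10). Counts over the ORF do not tell spliced from unspliced HAC1 mRNA. Of the 7 genes of UPR signalling, 2 rose and 3 fell in mRNA. The other rise was in SLT2, the kinase of the cell wall integrity pathway, with 300 cpm at 4 h against 82.6 and 84.4 cpm. PTC2, a phosphatase that acts on Ire1, fell by 1.63, and TRL1 by 1.30. GCN4, the activator of amino acid biosynthesis genes, fell by 2.07 in mRNA (221 cpm at 4 h against 964 and 889 cpm) and by 1.60 in footprints (22.9 cpm against 64.2 and 73.9). IRE1 itself had 51.1 cpm at 4 h against 59.1 and 60.2 cpm, a change of -0.22 that did not pass the test (adjusted p = 0.05) and was 0.49 on total counts. GCN2, the kinase of eIF2α, had 112 cpm against 110 and 97.5 cpm (0.11, adjusted p = 0.303). The median of this list, -0.22 in mRNA, was 0.49 on total counts.

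ER-associated degradation, the removal of misfolded ER proteins to the proteasome, followed the folding genes at a smaller size. Of 17 members 12 rose and 2 fell in mRNA, and 13 rose and 3 fell in footprints, with a median of 0.94 in both. DER1, a subunit of the Hrd1 channel, had 63.2 cpm in mRNA at 4 h against 8.34 and 9.20 cpm at 0 h (2.85, adjusted p = 8.79e-13). Its relative DFM1 had 189 cpm against 34.3 and 36.2 cpm (2.42). MNL1, a mannosidase that marks glycoproteins for degradation, went the other way with 16.1 cpm at 4 h against 50.8 and 50 cpm, and SSM4, the ligase Doa10, fell by 0.64 but had a change of 0.07 on total counts.

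The lists for protein glycosylation, GPI anchors and translocation into the ER had smaller median changes. Over all genes 37.6% rose and 36% fell in mRNA. Of 20 genes for the synthesis and trimming of the N-glycan precursor, 9 rose and 4 fell in mRNA (median 0.06). SEC59, the dolichol kinase, rose by 1.45 and ALG13, a subunit of the second N-acetylglucosamine transferase, by 1.25, while ALG5, the dolichol-phosphate glucosyltransferase, fell by 1.24 and the mannosyltransferase ALG11 by 0.94. In the oligosaccharyltransferase, 3 of 9 subunits rose and 4 fell in mRNA (median 0.12, and -0.18 in footprints, which was 0.77 on total counts). OST2 (0.97) and SWP1 (0.83) rose, and OST6 fell by 0.52 and OST1 by 0.46, with changes of 0.19 and 0.26 on total counts. The call for OST6 was lost with DESeq2 (adjusted p = 0.0271) and that for OST1 in the fit of all 25 libraries (0.0108). Among the 6 protein O-mannosyltransferases PMT3 rose by 2.05 and PMT5 by 1.23, and PMT4 fell by 1.82. Of 21 genes for GPI anchors 6 rose and 4 fell, led by MCD4, which adds ethanolamine phosphate to the anchor and had 568 cpm at 4 h against 99.2 and 103 cpm (2.49). GPI13, with a related activity on a later mannose, fell by 0.74. GPI1 fell by 0.69, and its change was 0.03 on total counts. In the translocation and signal peptidase list 5 of 20 rose and 8 fell (median -0.12, and 0.60 on total counts). SEC72 (1.46) and SEC62 (1.01), both of the post-translational translocon, rose, whereas SSH1, the Sec61 homologue of the alternative translocon, had 66.1 cpm at 4 h against 312 cpm in both 0 h libraries and fell by 2.24.

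Transport between ER and Golgi was mostly higher in mRNA. Of 17 COPII coat genes and export receptors 11 rose and 1 fell (median 0.57), and of 12 COPI genes 8 rose and 4 fell (median 0.58). ERV29, the receptor that packs soluble glycoproteins into COPII vesicles, had 460 cpm in mRNA at 4 h against 70.2 and 77.1 cpm (2.64), and 578 cpm in footprints against 160 and 169 (1.81). Its footprints rose less than its mRNA, and TE fell by 0.83 (adjusted p = 0.00537). ERD2, the receptor that returns HDEL proteins to the ER, behaved likewise, with changes of 1.77 in mRNA and 1.08 in footprints and a TE change of -0.69 (0.0058). In eS7A-WT after 4 h of Tm the TE changes were 0.01 for ERV29 and -0.02 for ERD2, but neither difference between the strains passed the test. The coat subunit SFB2 rose by 1.54 and the Arf GTPase ARF2 by 1.39. ERV14, a receptor for membrane cargo, fell by 0.95, and the Arf exchange factors GEA2 and GEA1 fell by 1.28 and 1.14. In footprints only 6 of the 17 COPII genes and 6 of the 12 COPI genes were called higher, with medians of 0.30 and 0.25.

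In lipid synthesis INO1 stood apart. INO1, the inositol-3-phosphate synthase whose transcription is known to need the UPR pathway, had 594 cpm in mRNA at 4 h against 12.8 and 15.5 cpm at 0 h (chromosome X, 134332 to 135933). Its footprints were 686 cpm at 4 h and 21.8 and 18.7 cpm at 0 h, and the changes were 5.39 (adjusted p = 1.1e-14) and 5.11 (6.88e-14). Of the 15 genes of inositol and phospholipid synthesis it was 1 of 2 that rose, the other being the methyltransferase OPI3 (0.74), and 7 fell, led by the decarboxylase PSD1 (1.93 lower on the log2 scale) and the methyltransferase CHO2 (1.57 lower). The median of the inositol and phospholipid list was -0.20 in mRNA and -0.64 in footprints, and 0.51 and 0.32 on total counts. Of 23 ergosterol genes 3 rose and 13 fell (median -0.46, and 0.25 on total counts). The last enzyme of the pathway, ERG4, fell by 1.63 and the reductase ERG24 by 1.39, whereas the thiolase ERG10 (0.79) and ERG26 (0.49) rose, the second with a call that was lost with DESeq2 (adjusted p = 0.0184).

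The cell wall list split. Of 31 genes, 19 rose and 10 fell in mRNA, and 19 rose and 9 fell in footprints. GSC2, the stress-induced catalytic subunit of β-glucan synthase (chromosome VII, 548264 to 553951), had 2311 cpm in mRNA at 4 h against 89.9 and 78.3 cpm at 0 h. Its footprints were 2588 cpm at 4 h against 43.8 and 43.9 cpm, so that both mRNA (4.78) and TE (1.10, adjusted p = 0.00177) rose. The yapsin protease YPS3 had 381 cpm at 4 h against 22 and 26 cpm (3.99). In the other direction the crosslinking enzyme UTR2 had 60.4 cpm against 542 and 563 cpm and fell by 3.19, and the mannoprotein TIR1 fell by 2.78. As a share of all counts, the 31 genes took 2.67% of the RNA-seq library at 4 h, against 1.33% and 1.32% at 0 h, and 6.24% of footprints against 2.31% and 2.36%. Among 11 genes of calcineurin and calcium handling 6 rose and none fell in mRNA. Besides GSC2 the calcineurin regulator RCN2 had 170 cpm at 4 h, against 12.2 and 14.6 cpm (3.67).

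Of the 44 lists the cytosolic ribosomal proteins had the lowest medians. All 56 genes of the small subunit and all 81 of the large subunit fell in mRNA and in footprints, also on total counts, where the member that fell least in mRNA had a change of -1.56. The median change over the 137 genes was -4.42 in mRNA and -4.71 in footprints, a fall to a level 21.4 and 26.2 times lower than at 0 h. Together they took 1.46% of RNA-seq counts at 4 h, against 17.9% and 18.7% at 0 h. Their share of footprints was 2.01% at 4 h, against 23.8% and 25% at 0 h. The mRNA changes ran from -5.41 in RPS9B to -2.26 in RPL41A. RPS9B had 58.1 cpm at 4 h against 2435 and 2519 cpm, RPS22A 33.2 cpm against 1211 and 1495 cpm, and the acidic stalk protein gene RPP2A 30.6 cpm against 1318 and 1179 cpm. Most of these proteins are encoded by a pair of near-identical genes, so that the split of reads between paralogs is uncertain. RPL22B departed from the other members in footprints, with 11 counts at 4 h against 696 and 1562, and its TE fell by 2.12 (adjusted p = 0.00122), which no other ribosomal protein gene did at the threshold.

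**Figure D4:**
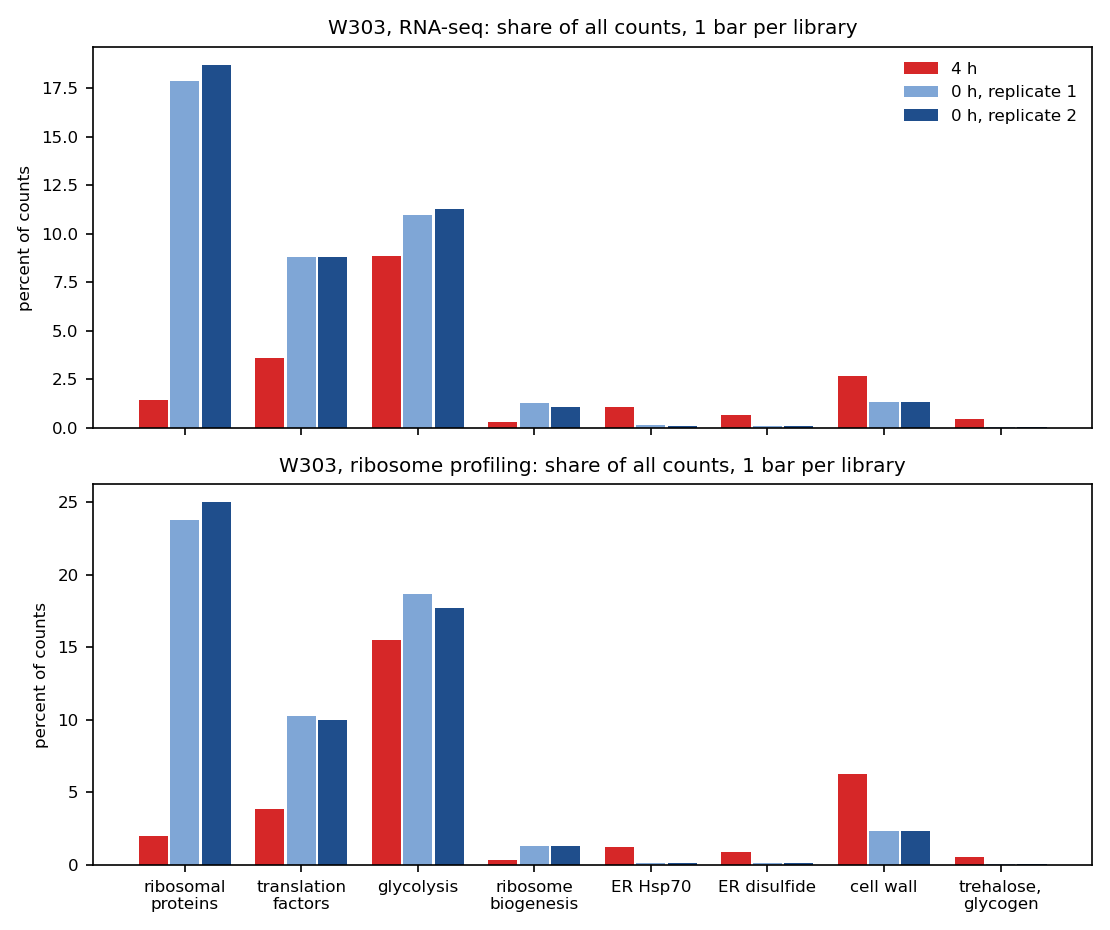
Percent of all counts of each W303 library taken by 8 gene lists, RNA-seq above and ribosome profiling below, with 4 h (red) left of the 0 h replicates (blue). Ribosomal proteins fell to 1.46% of RNA-seq counts and 2.01% of footprints at 4 h, against 17.9% and 18.7% and against 23.8% and 25% at 0 h, while the ER Hsp70, ER disulfide, cell wall and trehalose and glycogen lists took larger shares at 4 h.

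The eS7 proteins, the ribosomal proteins that the series is about, fell with the rest. RPS7A (chromosome XV, 505794 to 506767) had 67.7 cpm in mRNA at 4 h against 1714 and 1964 cpm, and 110 cpm in footprints against 2967 and 3358. RPS7B had 18.1 cpm in mRNA at 4 h against 332 and 393 cpm. In counts RPS7B made up 26.8% of RPS7A in RNA-seq at 4 h, against 19.3% and 20% at 0 h. Of the enzymes that add or remove ubiquitin on the ribosome, the ligase HEL2 fell by 1.42 in mRNA, BRE5, the cofactor of the protease Ubp3, by 1.70, and UBP3 by 0.71, which was a change of 0.0 on total counts. The ligase NOT4 (listed under its other name MOT2) had a change of 0.43 in mRNA, whose call was lost with DESeq2 (adjusted p = 0.116), without a filter (0.0283), in the fit of all 25 libraries (0.015) and without replicate 1 of RNA-seq at 0 h (0.016).

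Genes that make ribosomes fell next. All 84 ribosome biogenesis genes fell in mRNA (median -2.68) and in footprints (-2.83), and so did all 19 subunits of RNA polymerases I and III (-1.48 and -1.81). NSR1, a nucleolin-like protein, had 16.7 cpm in mRNA at 4 h against 501 and 471 cpm (-4.86), and the fibrillarin NOP1 had 22.3 cpm against 420 and 384 cpm (-4.17). The polymerase I subunits RPA34 and RPA49 fell by 3.70 and 3.53. Of 36 translation factors 34 fell in mRNA and 35 in footprints (medians -1.90 and -2.12). The elongation factors TEF4, a subunit of eEF1B, and YEF3, which is eEF3, fell by 3.68 and 3.67, the second with 881 cpm at 4 h against 11520 and 10930 cpm. Mitochondrial ribosomal proteins did not share the size of this fall. Of 43 genes 23 fell and 1 rose, with a median of -0.39 that was 0.33 on total counts. MRPL37 fell by 1.16 and MRPL16 rose by 0.43, and the call for MRPL16 was lost with DESeq2 (adjusted p = 0.157).

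Biosynthetic genes were mostly lower. Of 46 genes for amino acid biosynthesis 40 fell and 2 rose in mRNA (median -1.42), and 42 fell and none rose in footprints (-1.75). LEU9, a minor 2-isopropylmalate synthase, had 9.70 cpm in mRNA at 4 h against 334 and 324 cpm (-5.08), and 17.9 cpm in footprints against 265 and 279, so that its TE rose by 1.16 (adjusted p = 0.00187). ARG3, ornithine carbamoyltransferase, fell by 3.30. The 2 that rose were SER33 (0.44) and LYS9 (0.39), and both calls were lost with DESeq2 (0.0457 and 0.0715). In purine and one-carbon metabolism 9 of 17 fell and 4 rose (median -0.44, and 0.27 on total counts), with IMD4 (-3.35), an IMP dehydrogenase, and ADE6 (-2.73) lowest and the glycine decarboxylase subunit GCV1 (1.27) highest. Sulfate assimilation and methionine genes had no common direction, since 9 of 23 rose and 10 fell. SUL1, a sulfate permease, rose by 3.94 from low counts, with 12.6 cpm at 4 h against 0.718 and 0.909 cpm, and STR3, a cystathionine lyase, by 1.84. SAM1, S-adenosylmethionine synthetase, fell by 3.05 and the permease SAM3 by 2.24. Of 16 tested genes under nitrogen catabolite repression 8 rose, led by the allantoin permease DAL4 (3.13) and the transaminase UGA1 (2.61). In the same list 7 fell, led by the permeases GAP1 (-2.98) and MEP2 (-2.0). Footprints numbered 52 at 4 h against 4 and 11 at 0 h for DAL4, and 55 against 2 and 6 for SUL1. DAL4 and SUL1 passed the filter on low counts only through libraries with Tm. Their changes are therefore given as values and not as support for a rise, although both are counted in their lists.

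Most genes of phosphate starvation were lower, and the iron regulon was mixed. Of 13 genes of phosphate starvation 11 fell and 1 rose, with medians of -1.39 in mRNA and -1.62 in footprints. PHO84, the high-affinity phosphate transporter, had 18.4 cpm in mRNA at 4 h, against 520 and 506 cpm (-4.80). SPL2, an inhibitor of low-affinity uptake, fell by 3.83, and the alkaline phosphatase PHO8 rose by 0.40, a call lost with DESeq2 (adjusted p = 0.075) and without a filter (0.0136). In the iron regulon 9 of 17 tested genes fell and 4 rose in mRNA (median -0.54, and 0.17 on total counts), and 8 fell and 5 rose in footprints (median -0.64, and 0.31 on total counts). FET3, the multicopper oxidase of iron uptake, had 53.1 cpm at 4 h against 931 and 1021 cpm (-4.20), and the siderophore transporter SIT1 fell by 2.98. TIS11, which binds mRNAs for decay under iron shortage, and the haem oxygenase HMX1 rose by 2.58 and 2.29.

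In central carbon metabolism most fermentation genes were lower, and sugar kinases and respiration genes were higher. Of 20 genes of glycolysis and fermentation 13 fell and 3 rose (median -0.90 in mRNA and -1.13 in footprints). ADH1, the main alcohol dehydrogenase, had 1942 cpm in mRNA at 4 h against 7903 and 8144 cpm (-2.05), and the pyruvate decarboxylase PDC1 6237 cpm against 23240 and 24790 cpm (-1.95). The sugar kinases went the other way, GLK1 with 1709 cpm at 4 h against 57.7 and 73.7 cpm (4.70) and HXK1 with 413 cpm against 26.3 and 30.2 cpm (3.87). Of 7 hexose transporters 5 fell and 1 rose. HXT4 fell by 2.06 and HXT3 by 1.43, and HXT5, a transporter of slow growth, had 270 cpm in mRNA at 4 h against 7.66 and 7.19 cpm (5.18), with a smaller rise in footprints (3.45) and a TE change of -1.73 (adjusted p = 1.23e-05). Of 32 tested genes of the respiratory chain and ATP synthase 28 rose and 1 fell (medians 0.84 in mRNA and 0.88 in footprints). The rotenone-insensitive NADH dehydrogenase NDI1 rose by 2.10 and QCR10 by 2.35, and the 1 that fell was CYC1, cytochrome c (-0.81). In the tricarboxylic acid cycle and related paths 14 of 19 tested genes rose and 2 fell (median 0.94), with the citrate synthase CIT3 (3.68) and the succinyl-CoA ligase subunit LSC2 (2.92) highest. ACO1, aconitase, fell by 1.01, and IDH2 fell by 0.43 but had a change of 0.28 on total counts and lost its call with DESeq2 (adjusted p = 0.0111) and in the fit of all 25 libraries (0.0238).

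Genes of stress protection and storage rose together. All 17 tested genes of trehalose and glycogen metabolism rose in mRNA (median 2.20), and 14 of them rose in footprints (median 2.51). TSL1, a subunit of the trehalose synthase complex, had 827 cpm in mRNA at 4 h against 39.7 and 45.7 cpm at 0 h (4.28). Its footprints were 709 cpm at 4 h against 13.1 and 10.9 cpm, and TE rose by 1.64 (adjusted p = 8.03e-05). GLC3, the glycogen branching enzyme, had 95.7 cpm against 6.10 and 6.72 cpm (3.90). Of 18 autophagy genes 15 rose in mRNA and 17 in footprints and none fell (medians 2.00 and 2.19). ATG39, a receptor for the autophagy of the nucleus and the perinuclear ER, had 35.9 cpm in mRNA at 4 h against 0.918 and 0.948 cpm (5.26), and ATG8, the ubiquitin-like protein of the autophagosome, 57.4 cpm against 3.19 and 2.65 cpm (4.29). ATG39 had 215 footprints at 4 h against 1 and 3 at 0 h, and passed the filter on low counts only through libraries with Tm. Its change is therefore given as a value and not as support for a rise, although it is counted in the list. Of 22 tested antioxidant enzymes 14 rose and 4 fell (median 1.35). The peroxiredoxin PRX1 rose by 3.76 and the glutaredoxin GRX1 by 2.72, whereas the superoxide dismutase SOD1 fell by 1.56 and the thioredoxin reductase TRR1 by 1.02.

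The heat shock list held genes at both ends. Of 26 genes 17 rose and 5 fell in mRNA (median 0.96). HSP12, a small membrane-associated stress protein (chromosome VI, 107256 to 107585), had 431 cpm in mRNA at 4 h against 2.08 and 1.94 cpm at 0 h. The small chaperone HSP26 had 403 cpm at 4 h against 2.55 and 3.00 cpm. These were changes of 7.74 (adjusted p = 5.01e-16) and 7.18 (2.66e-15), among the 10 largest of all genes. SSB1 and SSB2, the Hsp70 chaperones bound to ribosomes, fell like the ribosomal proteins, SSB1 with 409 cpm at 4 h against 5989 and 6471 cpm (-3.93) and SSB2 with a change of -3.53. Of the 33 genes of the proteasome list 19 rose and none fell in mRNA, by small amounts (median 0.36). The largest rise was in RPN4, the transcription factor that activates the proteasome genes, with 168 cpm at 4 h against 55.4 and 67.0 cpm (1.46), and the ATPase subunit RPT3 rose by 0.91.

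Growth and cell cycle genes were mixed. All 9 genes of daughter-cell separation fell in mRNA and in footprints (medians -2.20 and -2.49). DSE2, a glucanase of the daughter wall, had 11.2 cpm in mRNA at 4 h against 113 and 118 cpm (-3.36), and EGT2 had 47.0 cpm against 399 and 480 cpm (-3.23). Of 10 histone genes 7 fell and none rose, with HTB2 (-3.51) and HTA2 (-3.45) lowest. Among 15 cyclins and inhibitors 6 rose, led by the G1 cyclins PCL1 (2.87) and PCL2 (1.62), and 7 fell, led by the inhibitor FAR1 (-4.0), which had 6.38 cpm at 4 h against 106 and 98.3 cpm, and by the S-phase cyclin CLB6 (-2.90). Genes of mating type moved too. Of 12 tested genes of pheromone response and a-cells 9 fell and 3 rose, and the pheromone receptor STE2 had 37.5 cpm at 4 h against 241 and 256 cpm (-2.73). The precursor gene MFA2 of the pheromone a-factor fell by 3.52, while the kinase FUS3 rose by 1.55. STE3, the receptor of alpha cells, was low but rose in mRNA, and had 56 footprints at 4 h against 1 and 5. STE3 passed the filter on low counts only through libraries with Tm. Footprints of the other alpha-cell genes did not rise. SAG1 had 4 at 4 h against 12 and 18, MF(ALPHA)1 0 against 1 and 5, and MF(ALPHA)2 0 against 0 and 2. Of 9 tested genes of multidrug resistance 5 fell and 2 rose (median -0.63, and 0.08 on total counts). The main drug pump PDR5 had 234 cpm at 4 h against 681 and 662 cpm (-1.52). Its relative PDR10 rose by 1.28 in mRNA and by 3.76 in footprints.

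The largest single mRNA rises were seen in genes with few counts at 0 h. DDR2, a multistress gene, had 2492 RNA-seq counts at 4 h, against 3 and 9. MOH1 had 3165 counts against 11 and 8, ULI1 18246 against 65 and 53, and YPT53, an endosomal Rab GTPase, 913 against 5 and 4. AMS1, the vacuolar mannosidase that degrades free glycans, reached a higher level, with 679 cpm in mRNA at 4 h against 8.62 and 8.38 cpm, and 824 cpm in footprints against 6.14 and 5.45, which was 79.9-fold higher in mRNA (adjusted p = 1.95e-15). CPP3, TMA10, and POT1, the peroxisomal thiolase, completed the 10 rises that were named, with changes of 6.61, 6.45 and 6.22 in mRNA. In footprints the leading rises included ULI1 (2443 counts at 4 h, against 2 and 2), XBP1, a repressor of G1 genes (785 counts against 2 and 9), and AGX1, alanine-glyoxylate aminotransferase (490 counts against 4 and 2). Such small counts at 0 h make the size of these changes imprecise. DDR2, MOH1, ULI1, YPT53, CPP3, POT1, XBP1 and AGX1 averaged under 10 counts at 0 h in RNA-seq, footprints or both. They passed the filter on low counts only through libraries with Tm, in which they are high. Their changes are therefore given as values and not as support for a rise.

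Besides ribosomal proteins, the largest falls in mRNA were in PHO3, INA1, DBP2, HO and RKI1. PHO3, an acid phosphatase, had 2.90 cpm in mRNA at 4 h against 237 and 247 cpm (-6.38), and 2.48 cpm in footprints against 409 and 397. INA1 had 4.73 cpm against 254 and 252 cpm (-5.74). DBP2, a DEAD-box RNA helicase, had 5.88 cpm against 269 and 260 cpm (-5.49), HO, the endonuclease of mating-type switching, 2.01 cpm against 93.0 and 84.9 cpm (-5.46), and RKI1, the ribose-5-phosphate isomerase, 1.60 cpm against 69.4 and 65.0 cpm (-5.39). The ribosomal protein gene RPL9A also belonged to this group, with 42.4 cpm at 4 h against 1334 and 1906 cpm (-5.25).

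TE changed in far fewer genes than mRNA. Of 5392 genes 213 were called (3.95%), 139 higher (2.58%) and 74 lower (1.37%), and 155 of them by at least 2-fold. At an unadjusted p under 0.05 there were 1320, and DESeq2 called 85. The TE change of the median gene was -0.06. Within the lists TE was seldom called. None of the 18 ER folding genes was, the TE changes of KAR2 (0.00), ERO1 (-0.05) and PDI1 (-0.11) among them, and of the 137 cytosolic ribosomal proteins only RPL22B was.

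After HAC1, the genes named for a TE rise were SSA3, IDP2, FUN19 and the ASP3 copies. SSA3, a stress-inducible cytosolic Hsp70, had 49.3 cpm in mRNA at 4 h against 20.7 and 18.5 cpm, but 165 footprints at 4 h against 2 and 6, and its fitted TE change was 4.23. IDP2, the cytosolic isocitrate dehydrogenase, had 186 footprints at 4 h against 1 and 3, with 34.9 cpm in mRNA against 6.54 and 5.37 cpm (TE change 4.17). That call was lost without a filter on low counts (adjusted p = 0.0227). In FUN19 (chromosome I, 80710 to 81951) mRNA rose by 2.76 and footprints by 6.72. In each of these 3 genes the footprints at 0 h rested on at most 9 counts per library. They passed the filter on low counts only through libraries with Tm, in which they are high, so that their TE changes are given as values and not as support for a rise in TE. ASP3-2 and ASP3-3, which encode asparaginase, have the same counts in every library as the 2 other ASP3 copies, so that the reads are shared and the 4 genes are 1 observation. Their mRNA was 320 cpm at 4 h against 207 and 200 cpm, and their footprints were 70.3 cpm against 5.12 and 5.33, a TE change of 3.09.

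Of the 139 genes with higher TE, mRNA was called higher in 75 and lower in 52, and of the 74 with lower TE it was called higher in 18 and lower in 40. Among the 6 falls in TE that were named, HNT1, SPP382 and HEF3 had higher mRNA and lower footprints. HNT1, an adenosine monophosphoramidase (chromosome IV, 239019 to 239606), had 161 cpm in mRNA at 4 h against 85.2 and 87.7 cpm at 0 h. Its footprints were 13.2 cpm at 4 h, from 69 counts, against 162 and 174 cpm, from 632 and 1438 counts. mRNA rose 1.86-fold (adjusted p = 1.33e-07), footprints were 12.8 times lower than at 0 h (2.21e-12), and TE fell by 4.58 ± 0.177 (1.91e-10). SPP382, a factor of spliceosome disassembly (chromosome XII, 973395 to 975521), had 45.9 cpm in mRNA at 4 h against 18.8 and 16.9 cpm, and 6 footprints against 55 and 121, with a TE change of -5.01 (5.09e-07). The coronin CRN1 (chromosome XII, 990777 to 992732) had an mRNA level of 131 cpm at 4 h against 149 and 162 cpm (-0.25, adjusted p = 0.0597), and had 13.3 cpm in footprints against 212 and 187 (TE change -3.65, 2.32e-08).

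The other named falls in TE were in HEF3, PHO11 and PHO12, which belong to multigene families. HEF3, a paralog of YEF3, had 19.0 cpm in mRNA at 4 h against 7.30 and 5.81 cpm, and 47 footprints against 341 and 532. At 0 h its footprints exceeded its mRNA by 3.49 and 3.36 on the log2 scale, and YEF3 had far higher levels, so that the split of short reads between both genes is uncertain. PHO11 and PHO12, acid phosphatases with nearly the same sequence, had 30 footprints each at 4 h, against 1298 and 2353 for PHO11 and 1363 and 2462 for PHO12, and TE changes of -2.97 and -3.00. Their mRNA fell less, by 2.77 and 2.81.

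**Figure D5:**
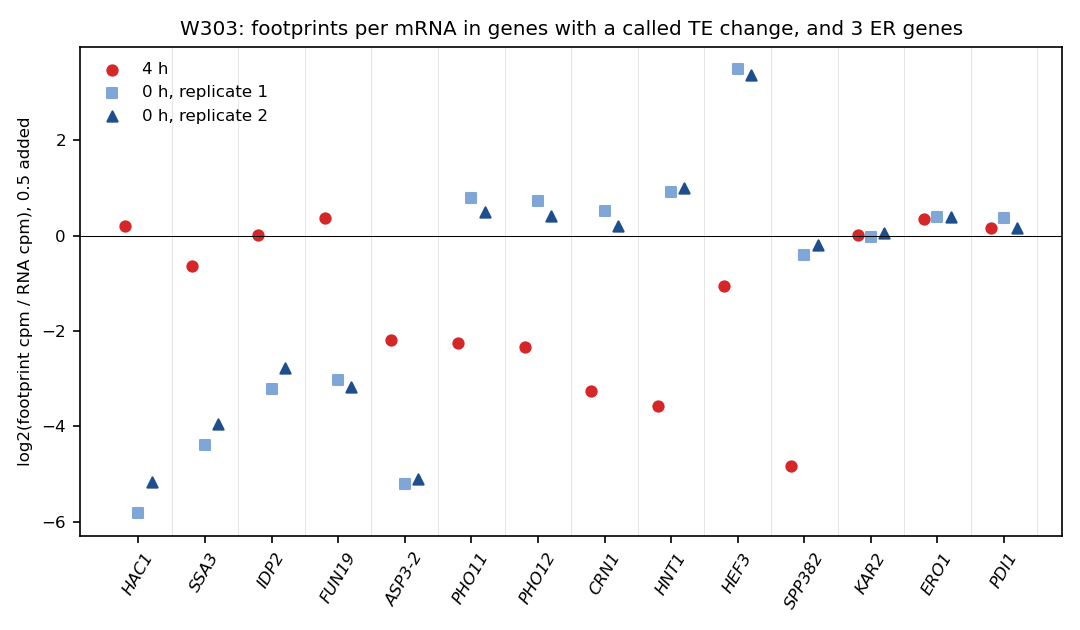
Log2 ratio of footprint cpm to RNA-seq cpm, with 0.5 added to both, in W303 libraries at 4 h (red) and 0 h (blue) for 11 genes with a called TE change and for KAR2, ERO1 and PDI1. HAC1 has a ratio of 0.20 at 4 h, against -5.82 and -5.17 at 0 h, HNT1 has -3.57 against 0.92 and 0.99, and in the 3 ER genes the 4 h point lies close to both 0 h points.

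Genes with a higher TE often lay near chromosome ends. Of 137 nuclear genes with a called rise in TE and an annotated position, 29 (21.2%) were within 25 kb of the outermost annotated gene of their chromosome, against 3.82% of the 5342 tested genes with a position. Among genes with a lower TE the share was 4.17%, and among genes with higher mRNA 4.63%. Within 40 kb the shares were 22.6% of genes with a higher TE and 15.3% of those with a lower TE, against 7.06% of all tested genes. The 29 genes are not independent. They included 8 copies of YRF1, the helicase of the subtelomeric Y' repeats, and 14 ORFs without a gene symbol, and reads from such repeats are shared between copies. The YRF1 copies had mRNA changes of -1.08 to -0.97, footprint changes of -0.08 to 0.32 and TE changes of 1.00 to 1.29, so that their footprints changed less than their mRNA. In eS7A-WT the TE changes of these copies were -0.02 to 0.39, and those of the 14 ORFs were -0.19 to 1.16, against 1.02 to 1.79 in W303. None of the 29 differences in TE between the strains passed the test. The other 7 carried symbols of their own, and their mRNA changes ran from 0.37 to 3.20. Of these, PGU1 (0 and 0 footprints at 0 h) and AQY3 (4 and 12) passed the filter on low counts only through libraries with Tm, and they are counted in the share. Genes with a higher TE were also long, with a median of 553 codons over which reads were counted, against 418 for all tested genes. This median also counts the 8 copies of YRF1 and the 14 ORFs without a symbol, and it was not computed without them.

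The same genes at 1 and 2 h are given side by side, since these comparisons share the libraries at 0 h. For the times 1, 2 and 4 h, the small-subunit proteins had median mRNA changes of -0.38, -2.66 and -4.41, and ribosome biogenesis had -0.91, -2.79 and -2.68. Ribosome biogenesis was thus close to its 4 h level at 2 h, while the ribosomal proteins were lower again at 4 h. The medians of the ER Hsp70 list were 1.37, 1.48 and 1.35, and those of the ER disulfide list were 1.64, 1.88 and 1.78. Trehalose and glycogen had medians of 0.27, 1.45 and 2.20, autophagy of 0.49, 1.58 and 2.00, and the respiratory chain of 0.13, 0.22 and 0.84. The TCA cycle list had 0.16, 0.63 and 0.94. Glycolysis and fermentation had 0.08, 0.14 and -0.90, so that their median was below 0 at 4 h alone. HAC1 footprints had changes of 4.87, 6.04 and 6.66, and HNT1 footprints of -2.44, -3.95 and -3.68. HSP12 mRNA had 0.71, 5.29 and 7.74. There was 1 library per assay at 1, 2 and 4 h, and the differences between these times were not tested.

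The strain eS7A-WT was treated in the same way for 4 h, and all 25 libraries in 1 fit allowed a test of the difference between both strains. For RNA-seq, W303 at 4 h and eS7A-WT at 0 h each had 1 library. It called 221 of 5526 genes in mRNA (4%), 121 in footprints (2.19%) and 12 in TE (0.217%). In TE, 354 genes had an unadjusted p under 0.05 and DESeq2 called 21. In this fit 3646 genes were called for mRNA in W303 and 3427 in eS7A-WT. The 3051 called in both were 83.7% of the first and 89% of the second, and 3036 of them had the same direction. The small-subunit proteins had a median of -4.41 in W303 and -3.67 in eS7A-WT, but 3 of the 56 genes passed the test of the difference. HSP12 rose more in W303, with mRNA changes of 7.72 in W303 and 4.39 in eS7A-WT in this fit, a difference of 3.33 (adjusted p = 1.07e-08, edgeR). Of the stress lists, 4 of 26 heat shock, 2 of 22 antioxidant and 3 of 17 trehalose and glycogen genes were called in mRNA, against 4% of all genes. INO1 rose less in W303, with 5.37 in W303 and 7.58 in eS7A-WT, a difference of -2.21 (1.44e-05), and it was 1 of 8 of the 15 inositol and phospholipid genes that passed the test. In footprints INO1 changed by 5.11 in W303 and 9.82 in eS7A-WT, a difference of -4.71, and its TE change differed by -2.50. OPI3 had mRNA changes of 0.71 in W303 and 3.91 in eS7A-WT, a difference of -3.19, and its footprint change differed by -3.75. None of the 18 ER folding genes passed the test of the difference, and KAR2 had mRNA changes of 2.62 in W303 and 2.63 in eS7A-WT. TE changed in both strains in HAC1 (5.71 in W303 and 6.62 in eS7A-WT), in HNT1 (-4.55 and -5.17) and in SPP382 (-4.98 and -5.89). These 3 differences between the strains did not pass the test, which does not show that the strains are alike.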

How the data were processed

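The deposited files held raw counts of reads per ORF for 6696 ORFs, made by the authors from ribosome footprints (RNase I digestion, random barcodes to remove PCR duplicates, reads assigned to the A-site) and from rRNA-depleted, stranded total RNA. The submitters' processing notes name CASAVA 1.8, Bowtie2 2.0.6, TopHat2 2.0.7 and sacCer3. A further deposited column, with values other than a measured level, gave the codons over which the authors counted. ORFs were matched by locus tag to RefSeq R64 for symbols and positions, and 6008 had an entry.

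The 10 W303 libraries (0, 1, 2 and 4 h) were fitted together in R 4.3.3 with edgeR 4.0.16 (glmQLFit and glmQLFTest, Benjamini-Hochberg adjustment, threshold 0.01), with TMM within each assay. A gene was tested where its counts averaged 10 or more over the libraries of both assays taken separately, which held for 5392 genes. The change in TE was the footprint change minus the mRNA change in the same fit, and the comparison with eS7A-WT was made in a fit of all 25 libraries with 5526 genes. The biological coefficient of variation of the W303 fit was 0.0727, with 2 residual degrees of freedom. Alternatives were other scalings, filters, tests and library sets, DESeq2 1.42.0, a block and the omission of libraries. Simulated counts were used to test the scripts, and of 100 genes changed 2-fold 100 were recovered in mRNA (5377 genes) and 81 in footprints (5383 genes).

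The genes named were the 10 largest rises and 10 largest falls in mRNA, 8 and 8 in footprints and 6 and 6 in TE, among called genes with a symbol, 50 or more counts on average and a 4 h value outside both 0 h values. To these were added the 2 strongest called rises and falls of each of 44 lists, and all genes of the UPR signalling and ER folding lists. HEL2, BRE5, UBP3, the YRF1 copies and RPL41A were named after their values were seen. Members and lists were chosen with earlier results of these data known. The RNase P gene RPP1 was left out of the ribosomal protein list, although its symbol resembles theirs. Gene lists were described by counts and medians, without a set test. Promoter motifs and HDEL proteins were not analysed here. Figures were drawn with matplotlib 3.10.9 in Python 3.11.15.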

Additional observations from a re-analysis of the deposited data

Results flagged for a closer look

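The values below are differences on the log2 scale between the 4 h change in W303 and the 4 h change in eS7A-WT, from 1 fit of all 25 libraries, that passed edgeR's quasi-likelihood test at a Benjamini-Hochberg adjusted p under 0.01. In W303 the 4 h groups had 1 library per assay, against 2 in eS7A-WT. At 0 h eS7A-WT had 1 RNA-seq library. The differences in mRNA and TE therefore rest on RNA-seq groups without a replicate in both strains.

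Of the genes that rose, DDR2, HSP12, HSP26 and SSA3 differed between the strains. The mRNA change of DDR2 was 8.04 in W303 and 4.42 in eS7A-WT, a difference of 3.62 that rests on 3 and 9 counts in W303 at 0 h. For HSP12 the difference was 3.33 in mRNA and 2.42 in footprints. For HSP26 it was 3.01 in mRNA (7.16 in W303 and 4.14 in eS7A-WT) and 2.58 in footprints. SSA3 had a footprint change of 5.58 in W303 and 2.43 in eS7A-WT, a difference of 3.15, and its TE change differed by 2.88. That TE difference was not called with the newer quasi-likelihood setting, under which no gene was (0 of the TE differences). Both SSA3 differences rest on 2 and 6 footprints in W303 at 0 h. They are given as values and not as support for a difference between the strains.

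The genes that follow fell more in W303. The difference in mRNA was -1.65 for HO, -1.28 for RPL31B, -1.11 for PHO3, -1.03 for GCN4, -1.26 for PHO11 and -1.27 for PHO12, the last pair with shared reads.

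RPS7A differed by -1.66 in mRNA (-4.78 in W303 and -3.12 in eS7A-WT) and by -1.57 in footprints, and RPS7B differed by -1.28 in footprints. In eS7A-WT the chromosomal copies of both genes are deleted and eS7A is expressed from a plasmid. The footprints counted for RPS7B in eS7A-WT therefore do not measure that gene, and the difference of -1.28 is not one of RPS7B. RPS7B made up 17.9% to 26.8% of RPS7A in the RNA-seq counts of W303, and 0.248% to 0.435% in the strains with the deletions. The same share in footprints was 33.9% to 50.5% in W303, against 6.78% to 12.6% where the chromosomal gene is deleted.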

How the results depend on the processing

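Between 2844 (DESeq2) and 4375 (threshold of 0.05) genes were called for mRNA and between 2751 (DESeq2) and 4238 (total counts) for footprints under the alternatives that kept all libraries of the comparison, and leaving out 1 library at 0 h gave 3815 to 4039 for mRNA and 3016 to 3627 for footprints. The count for TE was less stable. It was 526 at a threshold of 0.05, 432 on total counts, 360 with the likelihood ratio test, 85 with DESeq2 and 15 without a filter on low counts. Leaving out 1 library at 0 h gave 85 (without footprint replicate 2) to 418 (without RNA-seq replicate 2), and the causes were not tested. On total counts 83.1% of TE calls were higher, and 80.3% with TMM over both assays, which moved the TE change of the median gene by 0.133, against 65.3% as reported. It was 58.1% with the likelihood ratio test. Without RNA-seq replicate 2 at 0 h, which leaves that group without a replicate, there was no excess of higher TE. Why the excess was lost was not tested. The 4 h libraries have no replicate and could not be left out.

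For the difference between W303 and eS7A-WT, footprint calls numbered 250 on total counts, 211 with DESeq2 and 44 with the newer quasi-likelihood setting of edgeR, and TE calls 1, 21 and 0. For these TE calls 354 genes had an unadjusted p under 0.05. Leaving out 1 library gave 120 to 265 calls for mRNA, 70 to 154 for footprints and 3 to 19 for TE.

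At 0 h the deviations of footprints and RNA-seq with the same replicate number had a correlation of -0.0189 across genes. This does not tell whether these libraries came from the same culture, because the spread at 0 h may be technical. With the replicate block 3878 genes were called for mRNA, 3394 for footprints and 251 for TE, and 204 footprint and 28 TE differences between the strains. The mRNA call for IDH2 was lost with the replicate block (-0.37, adjusted p = 0.0128, edgeR).

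On total counts the mRNA change was 0.13 for CNE1, 0.26 for EPS1, 0.07 for SSM4, 0.19 for OST6, 0.26 for OST1, 0.03 for GPI1, 0.28 for IDH2 and 0.49 for IRE1, and the footprint change was 0.17 for CNE1, 0.39 for EPS1 and 0.84 for IRE1, all against a fall or a value below 0 with TMM. The medians of 10 of 44 lists in mRNA and 11 in footprints changed sign on that scale. With DESeq2 13 of 225 values of named genes lost their call. The low depth of the footprint library at 4 h limits what can be said of genes with few footprints.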
